A study of Homo sapiens with 82 samples.

Results

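GW3965 and T0901317, a pair of synthetic agonists of the liver X receptors (LXRs), were set directly against each other in HT29 cells, an established human colorectal adenocarcinoma line, after 24 h of treatment at 10 µM. The libraries were taken by their labels, all RNA-seq libraries of either agonist at 24 h, which gave 8 of the 82 samples of the series and 8 of its 32 RNA-seq libraries, with 4 GW3965 and 4 T0901317 libraries. The study compared LXR and PPARG activation in these cells by RNA-seq and ChIP-seq, with DMSO as the vehicle and rosiglitazone, an agonist of PPARG, at 10 µM, and with 24 h and 48 h as its RNA-seq time points. ChIP-seq was run on cells treated with DMSO, GW3965 or rosiglitazone, and 0 ChIP-seq libraries had T0901317. All groups used here came from the same line, and before treatment its medium was changed to phenol-red-free McCoy's 5A with charcoal/dextran-treated serum, which lowers the hormones and other small lipophilic ligands of serum. According to the methods each treatment was carried out 4 times, but the passages or days of these treatments are not stated, so the p-values given here measure the spread between the 4 libraries of a group and may not cover the spread between experiments. With 1 pair of compounds at the same dose and time, the comparison asks where agonists of the same receptors left different transcript levels.

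LXRs (NR1H2 and NR1H3) are nuclear receptors that bind oxysterols and act on DNA as partners of retinoid X receptors. Their classical targets move sterols out of the cell (ABCA1, ABCG1) and drive the synthesis of fatty acids (SREBF1, SCD, FASN). The peroxisome proliferator-activated receptors (PPARs) bind fatty acids, pair with the same retinoid X receptors, and raise genes of fatty acid oxidation and lipid storage such as PDK4, CPT1A and PLIN2. The bile acid receptor FXR (NR1H4) controls FGF19 and NR0B2 in the intestine, and interferons raise a further set that includes IRF1 and PARP14. T0901317 is also known to bind receptors other than LXRs, among them FXR, the xenobiotic receptor PXR and the retinoid-related orphan receptors (RORs), and the lists of these receptors were examined as well.

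Values are CPM, the counts of a gene relative to all counts of its library with TMM scaling between libraries, and differences are log2 values of GW3965 minus T0901317 from edgeR's quasi-likelihood test, so that a positive value is higher with GW3965. A gene passed at a Benjamini-Hochberg adjusted p under 0.01 over all 20934 genes tested. Total counts were 36791401 to 51332656 with GW3965 and 21044798 to 38908009 with T0901317 (exact two-sided permutation test, p = 0.0571, where the smallest possible is 0.0286), and mitochondrial transcripts took 2.23 to 3.06% and 2.46 to 2.87% of the counts. GW3965 replicate 1 stood apart: over 14336 genes its correlation with the other 7 libraries was 0.980 to 0.990, against at least 0.990 for every pair among the other 7. All 10 epithelial markers were tested, their summed level was 20355 to 20720 CPM with GW3965 and 19987 to 21204 CPM with T0901317, and CEACAM5 was the 1 of them that passed. Fibroblast markers summed to 4.56 to 8.37 CPM and 4.75 to 6.89 CPM, with COL1A2 at 0 in all 8 libraries. Endothelial markers summed to at most 1.19 CPM in every library, with KDR and CDH5 at 0 in all 8. On the leukocyte list PTPRC lay between 0 and 0.055 CPM, CD14 between 1.62 and 3.31 CPM and CD68 between 9.89 and 12.7 CPM. LYZ, also a secretory gene of the gut, carried most of that list at 452 to 564 CPM.

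Few genes separated GW3965 from T0901317 in HT29 cells at 24 h, with PPAR targets the list with the most called members on the GW3965 side and interferon-stimulated genes that on the T0901317 side. These counts depend on list length: PPAR targets had 8 of 51 called and a median of 0.22, LXR targets 1 of 17 and a median of 0.29. Without GW3965 replicate 1, 11 of 52 PPAR targets and 4 of 17 LXR targets were higher. Over all alternative settings but the test against 1.5-fold, 4 to 11 PPAR targets and 1 to 4 LXR targets were higher. With GW3965, 16 genes were higher, 0.0764% of the genes tested, and 39 genes were lower, 0.186% of the genes tested. The 16 included SLC38A4, PDK4, PLIN2 and ABCA1, and the 39 were led by DHRS3, FGF19, NR0B2, FAM131B, CLIC5 and IRF1. A fold of at least 1.5 was reached by 11 higher (0.0525%) and 30 lower genes (0.143%), and a fold of at least 2 by 3 higher (0.0143%) and 8 lower genes (0.0382%). The median difference over all genes was -0.00. In all 55 genes the 4 libraries of one agonist did not overlap with the 4 of the other, which held for 6.62% of all genes tested. The 55 were selected in these same libraries, so the lack of overlap follows largely from the selection and adds no support. The count rests on the libraries included: without GW3965 replicate 1, 53 genes were higher and 90 lower, and the 55 were all among them, whereas leaving out any of the other 7 libraries gave 10 to 16 higher and 14 to 23 lower genes. Just inside the threshold stood YBX2, NR0B2 and LGALS9, with adjusted p between 0.00922 and 0.00974, and just outside it TNFSF10 (-1.19), RHOU (0.39) and SAMD12 (-0.44), with adjusted p of 0.0103.

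**Figure D1:**
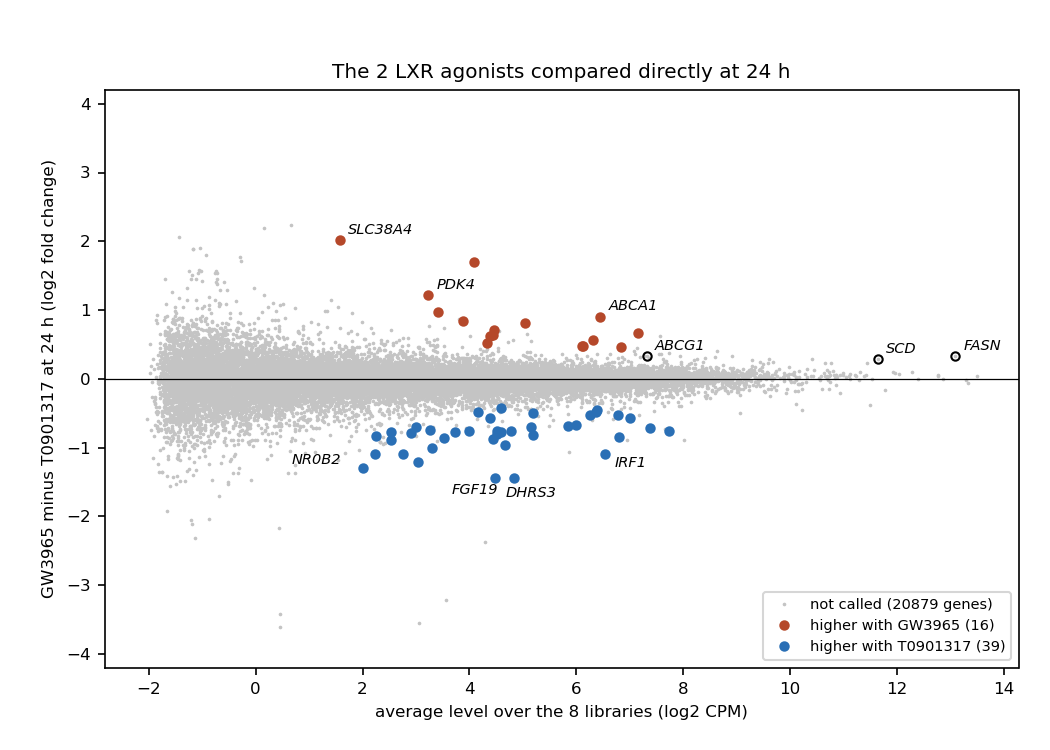
Difference between the agonists (log2, GW3965 minus T0901317, vertical axis) against the average level (log2 CPM, horizontal axis) for the 20934 genes tested at 24 h, with the 16 genes higher with GW3965 in red, the 39 lower in blue, and ABCG1, SCD and FASN, which did not pass, as open circles. SLC38A4 at 2.02 and DHRS3 at -1.45 are their upper and lower ends.

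Of the 16 genes higher with GW3965, 8 were on the list of PPAR targets. SLC38A4, the gene with the largest difference and not on that list, is a sodium-coupled transporter of neutral amino acids and measured 4.18, 4.91, 4.43 and 4.53 CPM in GW3965 replicates 1 to 4 and 1.22, 1.08, 1.06 and 1.07 CPM in T0901317 replicates 1 to 4. DMSO libraries had 1.13 ± 0.16 CPM (SD, n = 4), near the T0901317 level, and every GW3965 library stood above every T0901317 library. The difference was 2.02 (log2, standard error 0.13, adjusted p = 6.18e-05) or 4.06-fold over T0901317.

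PDK4, the kinase that switches off pyruvate dehydrogenase and so spares glucose for fatty acid oxidation, measured 12.2, 12.3, 13.3 and 13.4 CPM with GW3965 and 5.30, 5.63, 4.46 and 6.73 CPM with T0901317. All GW3965 libraries were above all T0901317 libraries, by 1.21 (standard error 0.12, adjusted p = 0.000402), and DMSO libraries had 4.63 ± 0.29 CPM. PLIN2, a coat protein of lipid droplets, measured 15.5, 14.4, 11.9 and 13.9 CPM with GW3965 and 6.55, 8.72, 7.44 and 6.03 CPM with T0901317. Here both agonists lay above the DMSO mean of 4.66 CPM, and GW3965 was 0.97 higher than T0901317 (standard error 0.12, adjusted p = 0.00274). CPT1A, which admits long-chain fatty acids to mitochondria, measured 171, 177, 180.5 and 166 CPM with GW3965 and 113, 108, 115 and 102 CPM with T0901317. Its difference of 0.66 had a standard error of 0.06 (adjusted p = 0.000402), and the DMSO mean was 99.4 CPM.

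**Figure D2:**
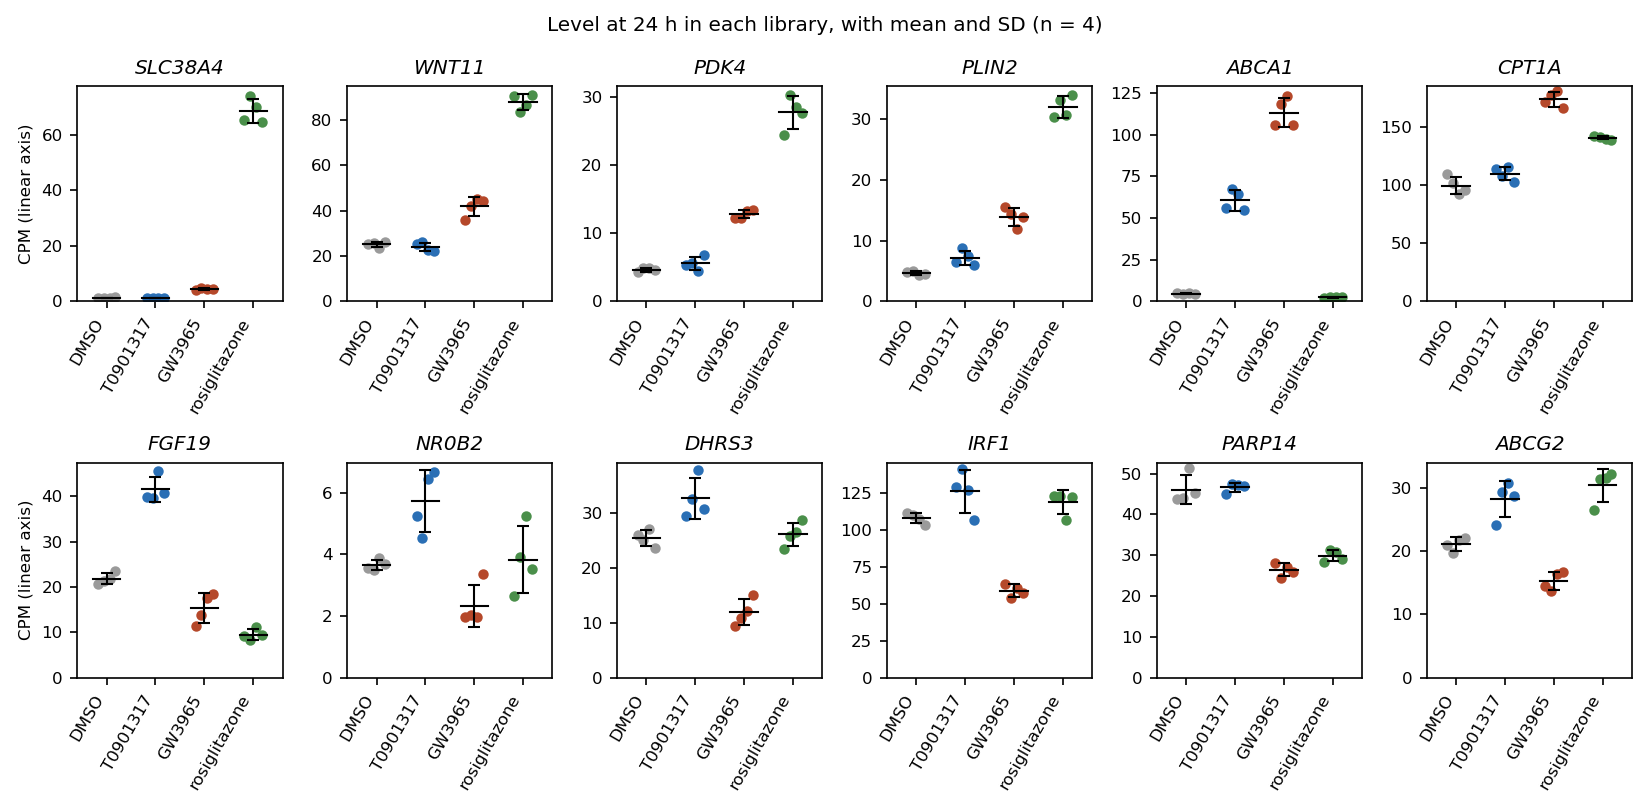
Levels (CPM, linear axis from 0) of 12 genes in each 24 h library of DMSO, T0901317, GW3965 and rosiglitazone, with a point for each library and bars for the mean ± SD of 4 libraries. In SLC38A4, WNT11, PDK4, PLIN2, ABCA1 and CPT1A the 4 GW3965 points lie above all T0901317 points, and in FGF19, NR0B2, DHRS3, IRF1, PARP14 and ABCG2 they lie below them.

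On the list of PPAR targets, 8 of 51 tested members were higher with GW3965 and 0 lower. They included PDK4, PLIN2, CPT1A, TXNIP (0.56), which restrains glucose uptake, CYP1B1 (0.48), a cytochrome P450, ACAA2 (0.48), a thiolase of the last step of beta-oxidation, and ACSL1 (0.46), which activates long-chain fatty acids. The median over the 51 was 0.22, beside -0.00 over all genes, 45 members had a positive value, and 28 were higher and 2 lower at an unadjusted p under 0.05, which 3.82% of all genes tested met as higher and 5.97% as lower. Without GW3965 replicate 1, 11 of 52 were higher, PLIN4 with 0.80 among them. Over all alternative settings but the test against 1.5-fold, 4 to 11 members were higher and at most 1 lower. PDK4 and CPT1A passed in all 8 fits that left out 1 library, and TXNIP in 7. PLIN2 and CYP1B1 passed in 3, ACSL1 in 2 and ACAA2 in 1. ANGPTL4, a secreted inhibitor of lipoprotein lipase, had 1.43 ± 0.35 CPM with GW3965 and 0.66 ± 0.39 CPM with T0901317, and its difference of 1.21 did not pass (adjusted p = 0.169, 95% interval 0.48 to 1.95). FABP4 had 0 counts in all 8 libraries. Beta-oxidation and ketogenesis genes, many of them on the PPAR list too, had 4 of 40 higher, with PDK4, CPT1A and ACAA2 among them, 0 lower and a median of 0.07. Among lipid droplet and lipase genes 1 of 26 was higher (PLIN2), and MGLL, the monoacylglycerol lipase, was at -0.42 with an adjusted p of 0.0193. It passed without GW3965 replicate 1, with -0.37 and an adjusted p of 0.00675. The receptors themselves did not pass: PPARA was at -0.11 (95% interval -0.25 to 0.03), PPARD at -0.00 (-0.20 to 0.19) and PPARG at -0.08 (-0.24 to 0.09).

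Of the LXR targets, ABCA1 was the 1 of 17 tested members that passed. ABCA1, which loads cholesterol onto apolipoproteins, measured 106, 118, 123 and 106 CPM with GW3965 and 55.8, 67.6, 64.4 and 54.6 CPM with T0901317. Both groups stood far above the DMSO libraries at 4.62 ± 0.28 CPM, and GW3965 was higher than T0901317 by 0.90 (standard error 0.09, adjusted p = 0.000402), or 1.87-fold. ABCG1, its partner in sterol efflux, measured 158, 186, 187 and 176 CPM with GW3965 and 132, 134, 155 and 141 CPM with T0901317. The groups of ABCG1 did not overlap, but its difference of 0.33 did not pass (adjusted p = 0.0858, 95% interval 0.16 to 0.50), and DMSO libraries had 6.93 CPM on average.

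SCD, the stearoyl-CoA desaturase, was at 0.29 (adjusted p = 0.0452, interval 0.16 to 0.41), LPCAT3, which places polyunsaturated acyl chains in phospholipids, at 0.37 (adjusted p = 0.0106, interval 0.25 to 0.50) and NR1H3 at 0.36 (adjusted p = 0.137, interval 0.16 to 0.57). Neither SREBF1, the transcription factor of lipid synthesis, at 0.23 (interval -0.10 to 0.57), nor FASN, the fatty acid synthase, at 0.33 (interval -0.08 to 0.74), nor MYLIP, the ligase that degrades the LDL receptor, at 0.07 (interval -0.06 to 0.21) passed. The upper ends of these 3 intervals all lay under the differences measured for PDK4 (1.21) and PLIN2 (0.97), large ones for the PPAR list. The intervals of SREBF1 and FASN still include the values of ACSL1 (0.46), ACAA2 (0.48), CYP1B1 (0.48) and TXNIP (0.56) on that list. They therefore do not show a smaller difference for LXR targets than for PPAR targets. GW3965 replicate 1 was the lowest of its group for SREBF1, with 1273 CPM against 1857 to 2202 CPM in the other 3, and for FASN, with 5694 CPM against 9458 to 12078 CPM. Without it, ABCG1 at 0.38 (adjusted p = 0.00675), SCD at 0.31 (adjusted p = 0.0048) and LPCAT3 at 0.38 (adjusted p = 0.00218) passed, so that 4 of 17 LXR targets were higher, while SREBF1 at 0.38 (adjusted p = 0.058) and FASN at 0.52 (adjusted p = 0.0133) still did not. The median over the 17 was 0.29 with all libraries and 0.38 without that library, and 13 of the 17 were positive. At an unadjusted p under 0.05, 6 of the 17 were higher and 1 lower, beside 3.82% and 5.97% of all genes. NR1H2 (0.03, interval -0.11 to 0.18) and RXRA (-0.01, interval -0.32 to 0.30), the receptors' own genes, did not pass. Of fatty acid synthesis genes 1 of 30 was higher (ACSL1, also on the PPAR list), with a median of 0.10, and of cholesterol synthesis and uptake genes 0 of 37 passed in either direction, with a median of 0.03 and 5 higher and 0 lower at an unadjusted p under 0.05.

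The remaining 6 genes higher with GW3965 were on neither of these lists. PKIB, an inhibitor of the cyclic AMP-dependent kinase, was at 0.84, WNT11, a secreted Wnt ligand, at 0.80, SLC6A20, a transporter of proline, at 0.71, SERPINE2, a secreted protease inhibitor, at 0.64, and CEACAM5, the carcinoembryonic antigen, at 0.62. WNT11 measured 41.8 ± 4.09 CPM with GW3965 and 24.0 ± 1.90 CPM with T0901317, with no overlap, where DMSO libraries had 25.1 CPM on average. MAPRE3, a protein of growing microtubule ends, was at 0.52, and it was named after its value had been seen, as were the lower genes below that are on no list.

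Genes lower with GW3965, which is to say higher with T0901317, formed the larger set. FGF19, the gut hormone that restrains bile acid synthesis in the liver, measured 11.4, 13.8, 17.7 and 18.5 CPM with GW3965 and 40.0, 39.8, 45.6 and 40.8 CPM with T0901317. DMSO libraries lay between them with 21.8 ± 1.20 CPM, and the difference was -1.44 (standard error 0.13, adjusted p = 0.000354), 2.71-fold in favour of T0901317. NR0B2, an orphan receptor without a DNA-binding domain that represses other receptors, measured 1.96, 2.05, 1.96 and 3.35 CPM with GW3965 and 5.25, 4.55, 6.44 and 6.67 CPM with T0901317. Its groups did not overlap and its difference of -1.29 (standard error 0.19) stood near the threshold, with an adjusted p of 0.0096. Both are targets of FXR, of which 2 of 6 tested were lower and 0 higher, with a median of -0.26. The 6 did not lie on 1 side: at an unadjusted p under 0.05, 3 were lower and 2 higher. The 2 higher were BAAT, at 1.26 and under 1 CPM (adjusted p = 0.192), and SLC27A5, at 0.51 (adjusted p = 0.114), both enzymes of bile acid conjugation. The FXR gene NR1H4 was under the filter on low counts: it had 8, 11, 13 and 6 counts with GW3965 and 0 in each T0901317 library, at least 9.29-fold higher against a limit of 3 counts over the T0901317 group, and without the filter its adjusted p was 0.0201.

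A pair of genes that handle retinal, the aldehyde form of vitamin A, were lower with GW3965. DHRS3, which reduces retinal to retinol, measured 9.51, 10.9, 12.2 and 15.2 CPM with GW3965 and 29.5, 32.6, 37.8 and 30.8 CPM with T0901317. It had the largest decrease among the 39, -1.45 (standard error 0.13, adjusted p = 0.000354), and DMSO libraries had 25.5 ± 1.48 CPM. ALDH1A3, which oxidises retinal to retinoic acid, measured 5.32, 3.55, 4.68 and 3.69 CPM with GW3965 and 11.4, 8.63, 9.13 and 7.46 CPM with T0901317. Its difference was -1.09 (standard error 0.16, adjusted p = 0.00782), and the DMSO mean was 8.54 CPM. DHRS3 passed in all 8 fits that left out 1 library, and ALDH1A3 in 2. That both handle retinal was noticed among the called genes and comes from no list.

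Interferon-stimulated genes were the list with the most members lower with GW3965, 4 of 40 tested, with 0 higher. IRF1, a transcription factor of the interferon response, measured 63.5, 53.5, 60.6 and 57.4 CPM with GW3965 and 129, 141, 127 and 107 CPM with T0901317. The DMSO libraries lay with the T0901317 libraries, at 108 ± 3.43 CPM, and the difference was -1.10 (standard error 0.09, adjusted p = 0.000202). PARP14, an ADP-ribosyltransferase induced by interferon, measured 28.2, 24.5, 27.03 and 25.9 CPM with GW3965 and 45.0, 47.6, 47.1 and 47.0 CPM with T0901317. DMSO libraries again lay with the T0901317 libraries, at 46.1 ± 3.57 CPM, and the difference was -0.82 (standard error 0.06, adjusted p = 0.000202). SAMD9, an antiviral factor, was at -0.76 (adjusted p = 0.00293) and DTX3L, a ubiquitin ligase that works with PARP9, at -0.43 (adjusted p = 0.00516). The median over the 40 was -0.24, 36 had a negative value, and at an unadjusted p under 0.05 there were 22 lower and 1 higher, beside 5.97% and 3.82% of all genes. Between 2 and 7 members were lower, and 0 higher, over the other settings of the analysis but the test against 1.5-fold. Under that test 0 genes of any list were lower at 24 h. Without GW3965 replicate 1, 5 members were lower, GBP3 being the addition. IRF1 and PARP14 passed in all 8 fits that left out 1 library, SAMD9 in 2 and DTX3L in 1. Of further genes with immune roles, LGALS9 (galectin-9) was at -0.70, ERAP2, which trims peptides for antigen presentation, at -0.76, APOL1 at -0.79 and C10orf54, now VSIR, an immune checkpoint ligand, at -1.01. NF-kB targets and epithelial chemokines had 1 of 22 lower, LCN2, an iron-scavenging protein of the mucosa, at -0.49. In bulk RNA fewer cells with a transcript and less of it per cell cannot be told apart. The leukocyte marker list summed to 466 to 520 CPM with GW3965 and 493 to 578 CPM with T0901317 (exact permutation test, p = 0.143). That sum is mostly LYZ, at 452 to 564 CPM, which is also a secretory gut gene. CD68 was at 9.89 to 12.7 CPM, CD14 at 1.62 to 3.31 CPM and PTPRC at most 0.055 CPM. The sum is therefore no measure of leukocyte content.

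The kallikreins KLK10 (-0.85) and KLK6 (-0.76), the serine protease PRSS22 (-0.97) and the matrix protease MMP7 (-0.80) were lower with GW3965, and so were the protease inhibitors SERPINB1 (-0.53) and SERPINA1 (-0.52). KLK10 measured 71.6 to 89.3 CPM with GW3965 and 141 to 149.8 CPM with T0901317, with a DMSO mean of 113 CPM. Kallikreins are a family of similar neighbouring genes, so counts could be shared among them. ABCG2, an exporter of drugs and urate, measured 14.5, 13.7, 16.3 and 16.7 CPM with GW3965 and 24.1, 29.3, 30.7 and 28.6 CPM with T0901317. It was at -0.88 (standard error 0.09, adjusted p = 0.000914), with DMSO libraries between the groups at 21.1 CPM. It was the 1 of 19 PXR and CAR targets that passed, and with ABCA1 it was 1 of the 2 of 27 ABC transporters that did, in opposite directions. CYP3A5 was at -0.40 with an adjusted p of 0.0131, and passed without GW3965 replicate 1 (-0.43, adjusted p = 0.00319). ELF3, an epithelial transcription factor, was at -0.57, BHLHE41, a repressor in the circadian clock and the 1 of 19 ROR and clock genes that passed, at -0.49, and TNFRSF11A, the receptor known as RANK, at -0.89. FAM131B (-1.20) and CLIC5 (-1.10) completed the genes with a fold over 2. The other 14 lower genes were CLEC3A, NUAK2, ANXA9, YBX2, LOXL4, KCNE3, NDRG2, GPRC5A, MAOB, IGFBP6, TRIM31, RP11-510N19.5, FRMD4B and PLA2G16, between -0.86 and -0.45.

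**Figure D3:**
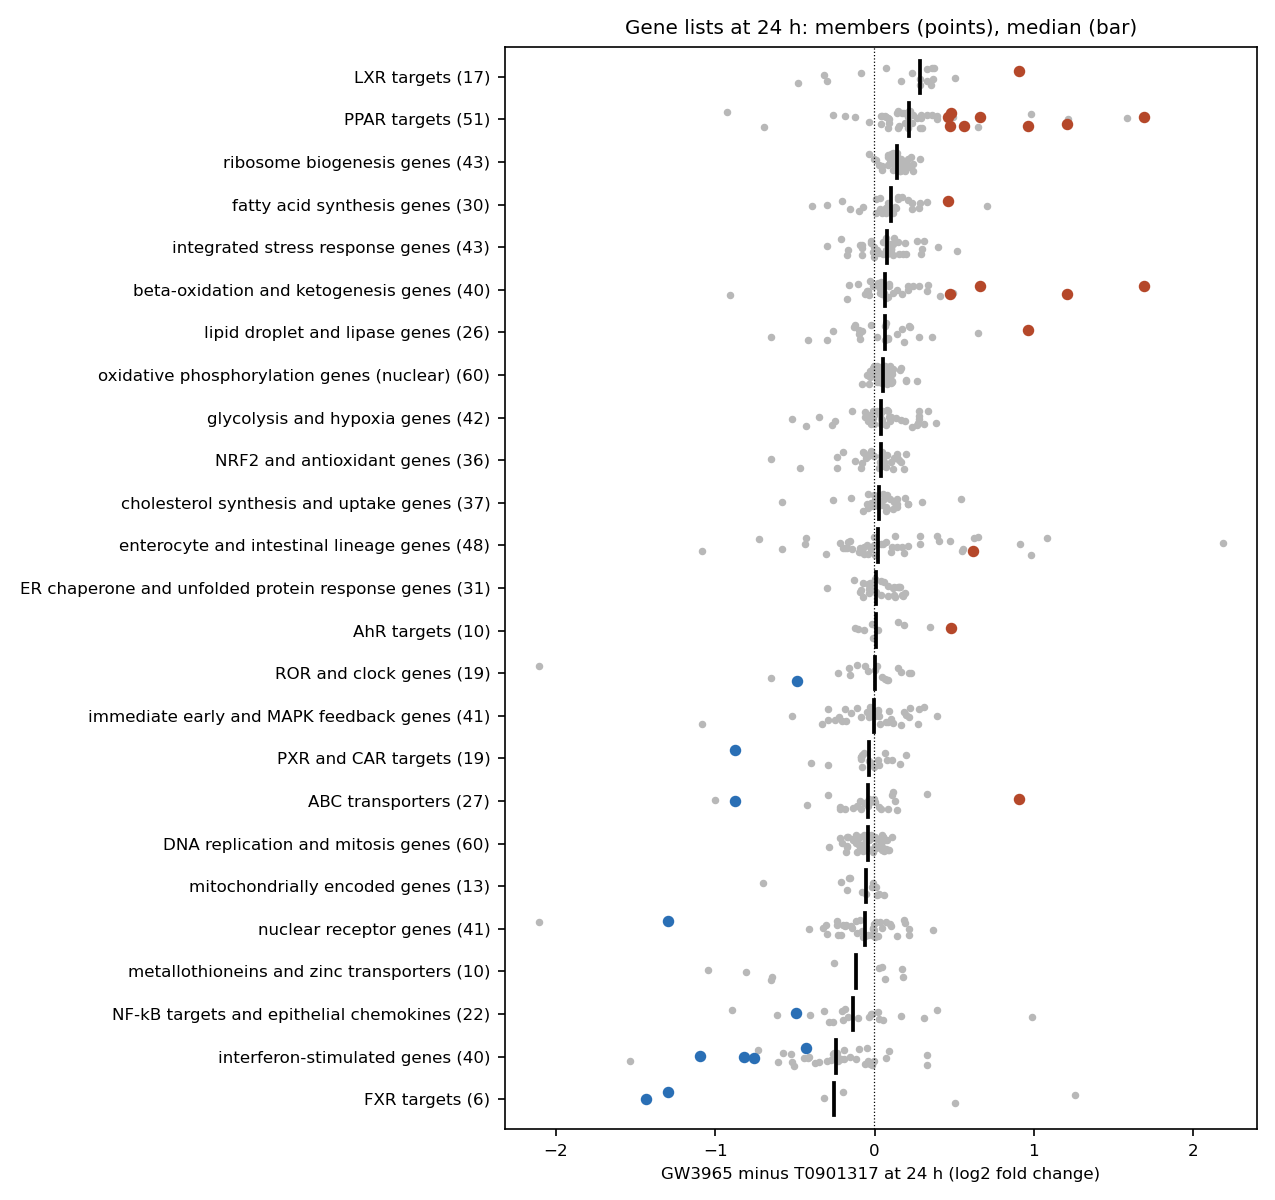
Difference between the agonists at 24 h (log2, GW3965 minus T0901317) of every tested member of the 25 gene lists, with a mark for each list's median and members that passed in colour. The PPAR list (median 0.22) has 8 members to the right, the interferon list (median -0.24) has 4 to the left, and the lists of stress, replication and respiration have none in colour.

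Most of the cell's other programmes held no gene that passed. Of integrated stress response genes 0 of 43 passed (median 0.08), and the same was true of 0 of 31 ER chaperone genes, 0 of 36 NRF2 and antioxidant genes, 0 of 10 metallothioneins and zinc transporters, and 0 of 41 immediate early and MAPK feedback genes. At an unadjusted p under 0.05 these 5 lists had 7, 5, 3, 1 and 5 higher and 1, 1, 5, 2 and 6 lower, beside the 3.82% and 5.97% of all genes, and without GW3965 replicate 1 TRIB3 and KLF4 passed. Against DMSO, 31 of 43 integrated stress response genes were higher with GW3965 and 26 of 43 with T0901317, beside 1.63% and 1.07% of all genes. Both counts use the same DMSO libraries, so they are not independent of each other. DNA replication and mitosis genes (0 of 60), glycolysis and hypoxia genes (0 of 42), nuclear genes of oxidative phosphorylation (0 of 60), ribosome biogenesis genes (0 of 43) and mitochondrially encoded genes (0 of 13) also had none. At an unadjusted p under 0.05 they had 0, 6, 2, 13 and 0 higher and 4, 5, 0, 0 and 3 lower. Ribosome biogenesis genes had a median of 0.14 with 41 of 43 positive, and replication genes a median of -0.04. Among enterocyte and intestinal lineage genes 1 of 48 passed, CEACAM5. KRT20, the keratin of differentiated enterocytes, at 0.40, CEACAM1 at -0.44 and CA2, a carbonic anhydrase, at -1.08 had adjusted p between 0.0105 and 0.0145, and all 3 passed without GW3965 replicate 1. Of AhR targets 1 of 10 was higher (CYP1B1), and of nuclear receptor genes 1 of 41 was lower (NR0B2).

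Levels in DMSO libraries place these genes against vehicle. Both agonists were compared with the same DMSO libraries, and these comparisons share the GW3965 and T0901317 libraries with the direct one, so that the directions are partly fixed by how the 55 genes were chosen. Over 21606 genes, 352 (1.63%) were higher and 158 (0.731%) lower with GW3965, and 231 (1.07%) were higher and 14 (0.0648%) lower with T0901317. Of the 16 genes higher with GW3965, 15 were higher with GW3965 than with DMSO, the exception being TXNIP. With T0901317, 4 of the 16 were higher than with DMSO (ABCA1, ACSL1, SLC6A20 and PLIN2) and 1 was lower, TXNIP at -0.45. For ABCA1 the values were 4.61 with GW3965 and 3.71 with T0901317, and for ACSL1 they were 1.60 and 1.13. SLC38A4 had 2.00 and -0.03. Of the 39 genes lower with GW3965, 32 were lower with GW3965 than with DMSO and 0 higher. With T0901317, 4 of the 39 were higher than with DMSO and 0 lower: FGF19 (0.93), CLEC3A (0.81), MMP7 (0.69) and BHLHE41 (0.36). NR0B2 passed in neither comparison, with -0.64 and 0.65. On the interferon list, 6 of 40 were lower and 1 higher with GW3965, and 0 lower and 2 higher with T0901317. On the PPAR list, 17 of 52 were higher and 1 lower with GW3965, and 6 higher and 1 lower with T0901317.

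Rosiglitazone against DMSO at 24 h shares no library with the comparison of the agonists. Over 20618 genes, 1701 (8.25%) were higher and 1601 (7.77%) were lower with rosiglitazone. With scaling by library size alone the counts were 995 and 2756, so that the share of higher genes went from 51.5% to 26.5%. Of the 16 genes higher with GW3965 than with T0901317, 12 were higher and 2 lower with rosiglitazone, and their median was 0.91 beside -0.01 over all genes. SLC38A4 measured 68.5 ± 4.37 CPM with rosiglitazone, PDK4 27.7 ± 2.43 and PLIN2 32.1 ± 1.81 CPM, and all 3 passed as higher than with DMSO. The 2 lower genes were ABCA1 at -0.95 and SLC6A20 at -1.79, and TXNIP (0.11) and CYP1B1 (-0.29) did not pass. Of the 39 genes lower with GW3965, 9 were higher and 16 lower with rosiglitazone, with a median of -0.15. FGF19 fell to 9.51 ± 1.17 CPM and PARP14 to 29.9 ± 1.36 CPM, whereas IRF1 at 0.14 and DHRS3 at 0.04 did not pass. TRIM31, a ubiquitin ligase, rose to 255 CPM with rosiglitazone from 94.9 CPM with DMSO. With scaling by library size alone, the counts were 12 higher and 3 lower for the 16 genes, and 8 higher and 16 lower for the 39. The PPAR list had 31 of 53 higher and 2 lower with rosiglitazone, and the interferon list 4 higher and 7 lower of 40.

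**Figure D4:**
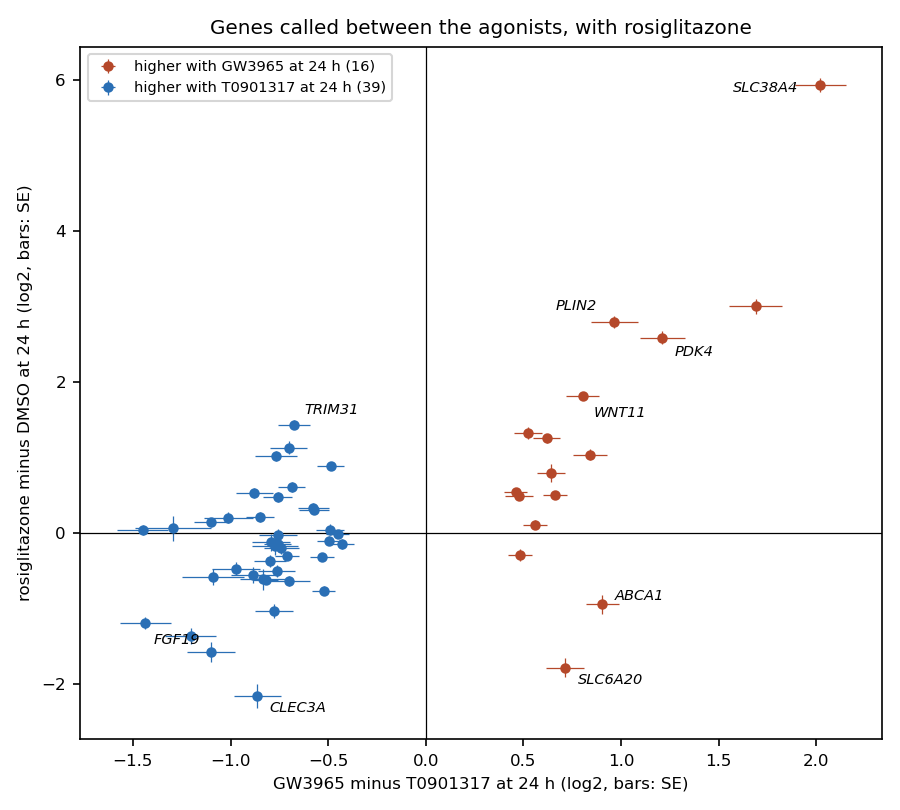
Difference between the agonists at 24 h (log2, GW3965 minus T0901317, horizontal axis) against rosiglitazone minus DMSO at 24 h (log2, vertical axis) for the 55 genes that passed, from separate libraries. The genes higher with GW3965 lie mostly above 0, with ABCA1 and SLC6A20 below it, and the genes lower with GW3965 lie on both sides.

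The same pair of compounds at 48 h, in libraries of their own, differed in many more genes. Of 21998 genes, 1374 (6.25%) were higher and 936 (4.25%) lower with GW3965, a share of higher genes of 59.5%. With scaling by library size alone these counts were 950 and 2025, a share of 31.9%, so the balance of directions at 48 h turned with the scaling. Leaving out 1 library gave between 732 higher and 491 lower genes, without T0901317 replicate 2, and 1887 higher and 1030 lower genes, without T0901317 replicate 1. The biological coefficient of variation, the spread between replicates beyond counting error, was 0.112 at 24 h and 0.0891 at 48 h. Of the 16 genes higher with GW3965 at 24 h, 14 were higher again and 0 lower, with a median of 0.71. Of the 39 lower genes, 35 were lower again and 0 higher, with a median of -0.61. The median over all genes at 48 h was -0.01, and 47.8% of them were positive. With scaling by library size alone, 50 of the 55 passed in their 24 h direction and 0 in the opposite one. ABCA1 measured 136, 122, 143 and 124 CPM with GW3965 at 48 h and 76.0, 79.9, 79.96 and 97.8 CPM with T0901317, a difference of 0.65. IRF1 measured 81.0, 66.4, 78.0 and 71.6 CPM and 164, 178, 171 and 173 CPM, a difference of -1.21. Neither pair of groups overlapped.

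The 6 genes of the 55 that did not pass at 48 h were TXNIP (0.37, adjusted p = 0.0222), CYP1B1 (0.07, adjusted p = 0.394), KLK6 (-0.31, adjusted p = 0.0105), KLK10 (-0.25, adjusted p = 0.0422), NUAK2 (-0.30, adjusted p = 0.0801) and MAOB (-0.08, adjusted p = 0.518). The difference between the times was itself tested in 22675 genes, and 2 passed (0.00882%), of which 0 were among the 55. The nearest of the 55 was DHRS3, at -1.45 at 24 h and -0.53 at 48 h, with an adjusted p of 0.0171 for the change. Interferon-stimulated genes had 28 of 41 lower and 0 higher at 48 h, with a median of -0.67, and LXR targets 7 of 18 higher and 1 lower, with a median of 0.30. PPAR targets had 17 of 53 higher and 2 lower, with a median of 0.24. Over all genes at 48 h, 6.25% were higher and 4.25% lower. SREBF1 (0.68, adjusted p = 0.000208), FASN (0.62, adjusted p = 0.00657), ABCG1 (0.35, adjusted p = 0.00226) and LPCAT3 (0.43, adjusted p = 0.000351) were higher with GW3965 at 48 h, while SCD (0.13, adjusted p = 0.137) did not pass. ANGPTL4 passed too, at 2.51 (adjusted p = 6.31e-05).

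**Figure D5:**
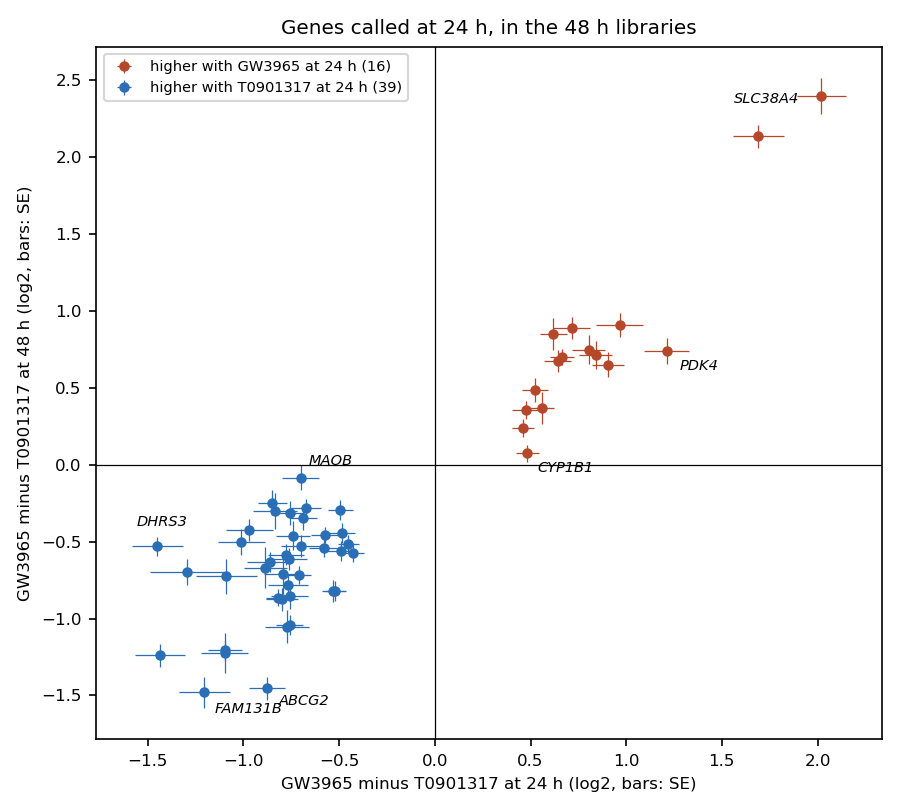
Difference between the agonists (log2, GW3965 minus T0901317) at 24 h (horizontal axis) and at 48 h (vertical axis) for the 55 genes that passed at 24 h, with bars of 1 standard error. All 16 genes higher at 24 h have a positive value at 48 h and all 39 lower ones a negative value with TMM scaling, and with scaling by library size alone CYP1B1 crosses to -0.01.

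Promoter sequence was read for the called genes, several of which shared a list. RefSeq promoters (build GRCh38.p14, 250 bases before to 50 after each start) were matched by symbol for 13 of the 16 and 32 of the 39 genes. Both strands were searched for repeats of AGGTCA with at most 2 mismatches, as a direct repeat with 1 base between (DR1, the form bound by PPAR with its partner), a direct repeat with 4 bases between (DR4, the LXR form) and an inverted repeat with 1 base between (IR1, the FXR form), and for exact GAAA, any 2 bases and GAAA, the core of interferon elements. The motifs were chosen after the genes were known, a match describes letters and no bound site, and genes with no match say nothing of the receptors. DR4 matched ABCA1, 1 of 13 and 0 of 32, beside 2.42% of all 27303 promoters and 1.65% of the 9538 of tested genes. DR1 matched ACAA2, 1 of 13 and 0 of 32, beside 2.99% and 2.22%, and IR1 matched 0 of either set, beside 1.15% and 0.891%. The interferon core matched 1 of 13 (SLC38A4) and 4 of 32 (PARP14, SAMD9, DTX3L and LGALS9), beside 3.65% of all promoters and 2.73% of those of tested genes. ABCA1 and ACAA2, on the LXR and PPAR lists, were the only called genes with a DR4 or DR1 match, so they do not represent those lists. Their windows and those of PARP14 and SAMD9 on the interferon list are given: ABCA1 (chr9:104928185-104928248, minus strand), ACAA2 (chr18:49813573-49813633, minus strand), PARP14 (chr3:122680786-122680843, plus strand) and SAMD9 (chr7:93118082-93118139, minus strand). Each is 5′ to 3′ in the gene's sense with the match in capitals, which for ABCA1 lies on the opposite strand.
ABCA1: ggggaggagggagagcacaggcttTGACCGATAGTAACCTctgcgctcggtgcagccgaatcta
ACAA2: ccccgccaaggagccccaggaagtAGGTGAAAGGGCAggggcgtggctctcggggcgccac
PARP14: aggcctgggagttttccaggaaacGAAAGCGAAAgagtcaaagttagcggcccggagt
SAMD9: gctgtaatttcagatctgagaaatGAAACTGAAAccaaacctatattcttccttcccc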

How the data were processed

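RNA-seq of HT29 cells was analysed from 2 tables, with 16 libraries at each of 24 h and 48 h. The authors deposited whole-number counts per gene, with no normalization, of paired-end Nextera libraries of mRNA, and compared genes with DESeq. The submitters' processing notes name hg19, TopHat, Cufflinks, Bowtie and MACS without saying which file each made. The counting program, its strand setting and the annotation are each not given in the sources used here, so reads of overlapping or antisense genes cannot be told apart. Peak lists were not used here, and 0 columns belonged to no sample of the series.

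Samples were grouped by their labels. The members, gene lists and genes to be named were chosen with earlier results of these data known. The 8 agonist libraries of 24 h were fitted alone with edgeR 4.0.16 in R 4.3.3, after filterByExpr and TMM scaling, and tested by the quasi-likelihood F test with Benjamini-Hochberg adjustment at 0.01. The 48 h comparison and rosiglitazone against DMSO were fitted in the same way, DMSO comparisons as contrasts of 1 fit of 12 libraries, and the change with time as an interaction over 16 libraries. The standard error was the log2 fold change over the root of F. CPM used the TMM factors of all 16 libraries of a time point. Libraries were compared by exact permutation tests over samples, and duplicate libraries were looked for and not found.

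Named were the 10 largest differences per direction among genes at 1.5-fold or more with average log2 CPM of at least 1 and no overlap, up to 4 members of each of 25 lists by smallest adjusted p, and fixed receptors and targets. Of the genes chosen by this rule, 2 are not reported here. Methods were tested on simulated data, where DESeq2 made more false calls than edgeR and was allowed more once this had been seen. Alternatives were DESeq2 1.42.0, RLE factors, library size alone, other filters, a replicate block, a test against 1.5-fold (glmTreat), all 16 libraries, and leaving out each library. Promoters were searched in Python 3.11.15 with pandas 2.3.3 and numpy 2.4.6, and plots were drawn with matplotlib 3.10.9.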

Additional observations from a re-analysis of the deposited data

Results flagged for a closer look

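In 7 of the 151 groups of values examined, over 74 genes and the library measures, 1 library of the 4 lay apart from the others by more than Dixon's critical ratio at the 95% level, and chance alone would give about 5% of groups such a gap. GW3965 replicate 1 gave 4 of the 7: ERAP2 at 21.4 CPM with the others at 20.1 to 20.2, BHLHE41 at 60.2 with the others at 71.4 to 72.6, PRSS22 at 12.3 with the others at 18.3 to 19.3, and FAM131B at 3.90 with the others at 5.29 to 5.39. This is the library that correlated least with the rest. None of these values reached the range of the T0901317 libraries. NR0B2 measured 3.35 CPM in GW3965 replicate 4 with the others at 1.96 to 2.05, and SLC38A4 measured 1.22 CPM in T0901317 replicate 1 with the others at 1.06 to 1.08. FGF21, under the filter on low counts, had 0.0286 CPM in T0901317 replicate 3, a single read, and 0 in the other 3.

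In 2 genes the difference between the agonists changed between 24 and 48 h by edgeR's test of the interaction. NDUFA1, a subunit of respiratory complex I, went from 0.08 to -0.82, a change of -0.91 (log2, standard error 0.11, adjusted p = 0.00155). GPX3, a secreted glutathione peroxidase, went from -0.08 to 0.56, a change of 0.64 (standard error 0.08, adjusted p = 0.00155). DESeq2 gave 65 such genes, library size alone 1 and the replicate block 0, and at an unadjusted p under 0.05 there were 4022.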

How the results depend on the processing

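All 55 genes called at 24 h had the same direction under every alternative, and 22 of them passed in all 15 other than the test against 1.5-fold, under which 2 of the 55 passed. The counts moved more. With DESeq2, which made more false calls than edgeR on simulated data, 64 genes were higher and 188 lower at 24 h (21 and 73 at 1.5-fold, 6 and 16 at 2-fold), against 42 and 130 with all 16 libraries (63 lower at 1.5-fold, 5 and 16 at 2-fold). Without the filter there were 26 and 72 (54 lower at 1.5-fold, 5 and 17 at 2-fold), with at least 1 CPM in 4 libraries 13 lower at 2-fold at 24 h and 42 at 48 h, and with library size alone 61 lower (49 at 1.5-fold) at 24 h. A test against 1.5-fold left 2 higher, SLC38A4 among them, and 0 lower at 24 h, with 46 and 104 at an unadjusted p under 0.05, and 14 and 16 at 48 h. With library size alone at 48 h, 2025 were lower, and 216 higher and 340 lower at 1.5-fold, and rosiglitazone had 995 higher and 2756 lower. DESeq2 gave 272 lower with GW3965 against DMSO, and 419 higher and 55 lower with T0901317. For the change with time it gave 65 genes, and library size alone gave 1. The cause of these shifts was not tested.

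Leaving out 1 library gave 10 to 53 higher and 14 to 90 lower at 24 h, 8 to 26 and 14 to 52 at 1.5-fold, and 3 to 9 and 5 to 13 at 2-fold. Counts rose most without GW3965 replicate 1, and without T0901317 replicate 4 for higher genes at 2-fold. At 48 h the ranges were 732 to 1887 and 491 to 1030, 235 to 542 and 158 to 211, and 48 to 102 and 49 to 64, with most genes without T0901317 replicate 1.

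Replicate numbers were shared by the groups, but same-numbered libraries showed little shared deviation (correlations of -0.01, 0.06, 0.19 and -0.04 at 24 h, and -0.00 to 0.03 at 48 h). The same number gave the highest correlation for replicate 3 at 24 h and replicate 2 at 48 h. The number was not used as a pairing in the main test, and with 4 libraries per group this check cannot exclude a weak pairing. With a replicate block the counts were 13 and 29 at 24 h, 1340 and 835 at 48 h, 9 lower for T0901317 against DMSO, and 0 for the change with time (4261 at an unadjusted p under 0.05).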

Other observations

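A block of neighbouring genes at HLA-F differed between libraries of the same group and was noticed after the values had been seen. HLA-F, a non-classical class I gene, measured 61.5 and 58.5 CPM in T0901317 replicates 1 and 2 and 7.12 and 6.61 CPM in replicates 3 and 4, with 5.04 to 7.37 CPM in the 4 GW3965 libraries at 24 h. Over all 32 RNA-seq libraries, 4 had between 46.0 and 61.5 CPM and the other 28 between 5.04 and 10.6 CPM. The other 2 of the 4 were rosiglitazone replicate 3 at 24 h, with 60.3 CPM, and T0901317 replicate 3 at 48 h, with 46.0 CPM. The same 4 libraries had 30.1 to 42.2 CPM of HLA-F-AS1, against 0.838 to 3.85 CPM in the other 28. For MICE they had 21.9 to 31.3 CPM against 0.469 to 2.66 CPM, for HCG4P11 3.81 to 5.19 against 0.103 to 0.715 CPM, and for HCG9P5 3.64 to 5.13 against 0.0325 to 0.428 CPM. These genes lie beside each other in RefSeq, and reads of overlapping or similar genes may be shared among them. HLA-F did not pass at 24 h, with a difference of -2.37 (standard error 0.64) and an adjusted p of 0.152. The reason for the high libraries was not tested.

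Genes with a difference of more than 2 on the log2 scale that did not pass, also singled out after the values had been seen, included TOX2, at 0.129 to 0.71 CPM with GW3965 and 2.11 to 2.603 CPM with T0901317 (-2.16, adjusted p = 0.0103). STRC was at 2.24 (adjusted p = 0.0536), with 1.03 to 4.64 CPM and 0.281 to 0.715 CPM.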
